A study of Saccharomyces cerevisiae with 5 samples.

Results

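The cell wall integrity MAP kinase cascade was followed in a yeast strain without chitin synthase II. The cascade was taken as 10 genes for its kinases, its main transcription factor and the phosphatases that act on it, namely PKC1, BCK1, MKK1, MKK2, SLT2, YKL161C (also called KDX1), RLM1, SDP1, MSG5 and PTP2. They were found on the array by gene name or systematic name and make up 10 of its 6256 genes and 17 of its 10263 gene spots. All 10 were among the 6246 genes that could be tested. One probe reads each gene, printed on 2 spots for 7 genes and on 1 spot for PKC1, MSG5 and PTP2.

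The chs2Δ strain (YFR23, chs2delta::KANR) lacks the gene of the enzyme that lays down the primary septum at cell division, and it was compared with its parent, the wild-type strain MGD353 of the labels (MGD353-46D in the study's methods). Both are haploid MATα strains with mutations in trp1, ura3, leu2 and his3, functional ADE and ARG genes and the cyhR allele, and both grew at 26 °C in synthetic glucose medium. The mutant is represented by 1 strain, so the deletion cannot be told apart from other differences that this strain may carry. Labelled RNA of a chs2Δ culture and a wild-type culture was hybridised together on each of 5 two-colour Agilent oligonucleotide arrays, from 5 replicate cultures of either strain. The chs2Δ RNA carried Cy5 on replicates 1, 3 and 5 and Cy3 on replicates 2 and 4.

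Yeast senses damage to its wall with membrane proteins such as Wsc1 and Mid2, which act through the GTPase Rho1 on protein kinase C (Pkc1). Pkc1 starts a relay in which the kinase Bck1 activates the redundant pair Mkk1 and Mkk2, and these activate the MAP kinase Slt2. Slt2 acts on transcription factors, among them Rlm1, which drives genes of cell wall proteins and of the cascade itself, while phosphatases switch Slt2 off again. The arrays read mRNA, so they give no measure of the kinases' phosphorylation or activity.

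A value here is the log2 ratio of chs2Δ over wild type, so that 1 means a doubling of the relative mRNA level. The chs2Δ RNA gave dimmer spots on all 5 arrays, with a median signal over background between 77.5 and 197 against 213 to 431 for wild-type RNA, and the ratios were therefore scaled in 2 ways. Loess follows the ratio along spot intensity on each array and sets that curve to 0, while median centring moves all ratios of an array by the same amount. The curve at these 10 genes lay between -0.39 and -2.52, so the choice matters: from loess to median centring, ratios of all genes shifted by a median of 0.65 in the dimmest quintile of genes and by -0.69 in the brightest. A gene was called higher or lower at an adjusted p below 0.05 from limma, with Benjamini-Hochberg adjustment over all 6246 genes. With loess 35.7% of all genes were called higher and 36.0% lower, and with median centring 41.5% and 41.6%.

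The arrays also bear on the strain labels. CHS2 itself stood at -0.81 (SE 0.17, limma adjusted p = 0.0025 with loess), between -1.63 and -0.35 on single arrays, and 4 arrays still gave chs2Δ signal above background for it. Where its probe lies relative to the deletion was not examined. MYO1, the myosin II gene, stood at -0.31 (limma adjusted p = 0.0013, SE 0.06), and its chs2Δ signal was above background on 5 of 5 arrays. It was examined because the titles of the arrays name a myo1Δ strain where the sample sources name chs2Δ. The α-specific genes MF(ALPHA)1, STE3 and SAG1 gave signal above background in both strains on all 5 arrays, and MF(ALPHA)2 did so on 3 arrays in chs2Δ and 5 in wild type. All 4 were lower in chs2Δ, at -2.11 to -2.53 with loess and -2.83 to -3.17 with median centring. Of 5 a-specific genes, STE2 and MFA1 were above background in chs2Δ on 0 arrays, MFA2 on 2, AGA2 on 3 and STE6 on 5, against 2, 4, 1, 4 and 5 arrays in wild type. STE6 was called higher in chs2Δ under both scalings (0.91, limma adjusted p = 3.7e-06 with loess, and 1.13, adjusted p = 9.2e-07). The other a-specific genes lay between -0.05 and 0.16 with loess, where they were not called. With median centring they lay between 0.71 and 0.97 and were all called higher, although for STE2 and MFA1 0 arrays read chs2Δ above background. What part the mating type genes have in the cascade results was not tested. Ratios of all genes correlated between arrays with r between 0.869 and 0.978.

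Under loess, 6 of the 10 cascade genes were called higher in chs2Δ and 1 lower (60% and 10%, against 35.7% and 36.0% of all genes), with a median log2 ratio of 0.33 against -0.0062 over all genes. Under median centring 5 were called higher and 3 lower (50% and 30%, against 41.5% and 41.6%), with a median of 0.26 against -0.00078 over all genes. The phosphatase genes SDP1 and PTP2, the MAP kinase relative YKL161C and the factor RLM1 were called higher under both scalings, and BCK1 was called lower under both. SLT2 and MSG5 were called higher with loess and lower with median centring, so their direction is not settled by these arrays. MKK1 and MKK2 were called under neither. The values are averages over all cells of a culture, in which a change in every cell and a change in the share of cells that express a gene cannot be told apart.

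**Figure D1:**
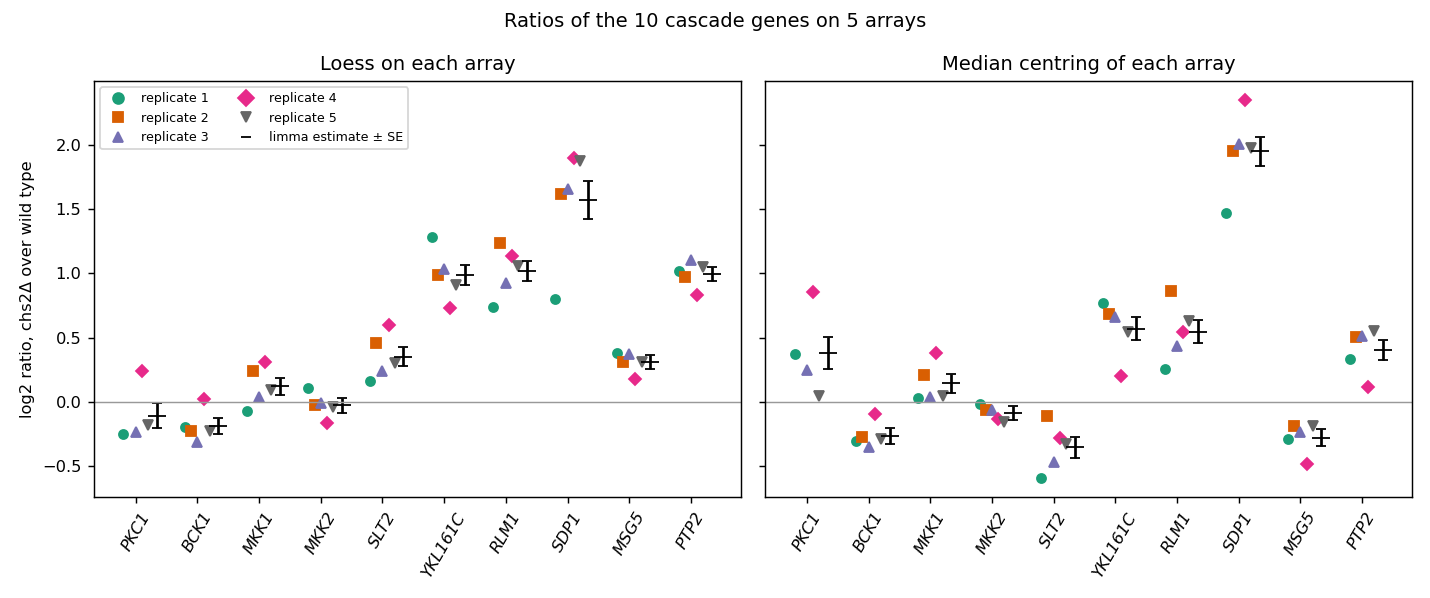
Log2 ratio of chs2Δ over wild type (vertical axis) for each of the 10 genes on each of the 5 arrays, with loess (left) and with median centring (right); symbols are arrays and bars are the limma estimate ± SE. SDP1, YKL161C, RLM1 and PTP2 lie above 0 on all 5 arrays in both panels, whereas SLT2 and MSG5 lie above 0 on the left and below 0 on the right.

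At the head of the relay, PKC1 had the weakest reading. PKC1 (YBL105C) encodes protein kinase C of yeast. Its single spot was flagged as poor on replicate 2, and on replicates 1, 3, 4 and 5 the signal over background was 26.3, 29.8, 42.5 and 38.3 in chs2Δ, against 148, 149, 91.1 and 102 in wild type. Only 1 of the 4 chs2Δ readings was above background, so the ratio is set largely by readings near the floor. The loess ratios were -0.25, -0.24, 0.24 and -0.18, with an estimate of -0.11 (SE 0.09, limma adjusted p = 0.34), while median centring gave 0.38 (SE 0.13, adjusted p = 0.025). The sign of PKC1 thus turned with the scaling. The lone positive loess value came from the only usable array with chs2Δ in Cy3.

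BCK1 (YJL095W), which encodes the MAP kinase kinase kinase, was the only member called lower under both scalings. Its signal over background was 70.0, 148, 58.6, 71.9 and 56.7 in chs2Δ against 417, 257, 324, 319 and 177 in wild type on replicates 1 to 5. The loess ratios of -0.19, -0.23, -0.31, 0.03 and -0.22 gave an estimate of -0.19 (SE 0.06, limma adjusted p = 0.024), and median centring gave -0.26 (SE 0.06, adjusted p = 0.0038), with 5 of 5 arrays below 0. The fall was small, 0.879-fold with loess, and its loess call was lost without replicate 2 (adjusted p = 0.066), replicate 3 (0.099) or replicate 5 (0.076). The median-centred call was lost without background correction (-0.11, adjusted p = 0.059) and with subtraction (-0.22, adjusted p = 0.059).

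MKK1 (YOR231W) and MKK2 (YPL140C), the paralogous MAP kinase kinases, stayed near 0. MKK1 had loess ratios of -0.07, 0.24, 0.04, 0.31 and 0.09 on replicates 1 to 5 and an estimate of 0.12 (SE 0.07, limma adjusted p = 0.14). MKK2 had 0.11, -0.03, -0.01, -0.17 and -0.04, with an estimate of -0.03 (SE 0.06, adjusted p = 0.68). Under median centring the estimates were 0.14 (adjusted p = 0.092) and -0.09 (adjusted p = 0.19). Both genes gave signals above background in both strains on all 5 arrays, 56.9 to 173 in chs2Δ against 148 to 376 in wild type. MKK1 exceeded MKK2 by 0.15 ± 0.25 with loess, on 4 of 5 arrays (SD, n = 5, exact two-sided sign-flip test, p = 0.25), so no difference was shown there. With median centring it did so by 0.23 ± 0.18, on 5 of 5 arrays (exact sign-flip p = 0.062, adjusted p = 0.078). With 5 arrays this test cannot give a p below 0.062, so it cannot decide whether the median-centred ratios differ. A dye term in the model moved MKK1 past the threshold (0.15, adjusted p = 0.024), since its ratio averaged 0.02 on the 3 arrays with chs2Δ in Cy5 and 0.28 on the other two.

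The MAP kinase SLT2 (YHR030C) lay in the brightest quintile of the array, where the scalings are furthest apart, and its estimates differed by 0.71 between them, the widest gap of the 10 genes. Its signal over background was 530, 1160, 636, 527 and 614 in chs2Δ against 2630, 2030, 2350, 2100 and 1390 in wild type. Loess gave ratios of 0.16, 0.46, 0.24, 0.60 and 0.30, or 1.28-fold higher (log2 0.35, SE 0.07, limma adjusted p = 0.0024). Median centring gave -0.59, -0.11, -0.47, -0.28 and -0.32, with an estimate of -0.35 (SE 0.08, adjusted p = 0.0028). All 5 arrays had 1 sign in each case, so the spread between arrays does not separate these readings. The background treatment entered as well: with median centring after normexp with an offset of 0, or after plain subtraction, SLT2 stood at 0.12 (adjusted p = 0.23) and 0.08 (adjusted p = 0.38). With loess, it was called higher under each of the 4 background treatments.

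YKL161C, the paralogue of SLT2 whose product is regarded as a pseudokinase, was called higher by both scalings. Its signal over background was 252, 345, 194, 159 and 197 in chs2Δ against 514, 308, 373, 480 and 249 in wild type. Loess ratios were 1.28, 0.98, 1.03, 0.73 and 0.91, or 1.98-fold higher (log2 0.99, SE 0.08, limma adjusted p = 1e-05). Median centring lowered the estimate to 0.57 (1.49-fold, SE 0.09, adjusted p = 0.00031), with values between 0.20 and 0.77. Over the background treatments the median-centred estimate lay between 0.26, without correction, and 1.00, with an offset of 0, and was called higher in each. Within each array YKL161C stood above SLT2, by 1.12, 0.53, 0.79, 0.13 and 0.61 on the log2 scale with loess. The mean difference was 0.63 ± 0.36 (SD, n = 5, exact two-sided sign-flip test, p = 0.062, adjusted p = 0.10 over 5 pairs of related genes). With 5 arrays this test cannot give a p below 0.062. The difference was 0.92 ± 0.34 with median centring and was positive on 5 of 5 arrays.

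RLM1 (YPL089C) encodes the MADS-box transcription factor that Slt2 phosphorylates. Its signal over background was 210, 466, 243, 205 and 238 in chs2Δ against 622, 381, 526, 470 and 277 in wild type. The loess ratios were 0.74, 1.24, 0.93, 1.14 and 1.06, or 2.03-fold higher (log2 1.02, SE 0.08, limma adjusted p = 7.6e-06). Median centring gave 0.26, 0.86, 0.44, 0.54 and 0.63, or 1.46-fold (log2 0.55, SE 0.09, adjusted p = 0.00043). The 5 arrays had the same sign in both. With median centring the estimate was 0.23 without background correction, where the call was lost (adjusted p = 0.078), and 0.98 with an offset of 0. SMP1, a MADS-box gene closely related to RLM1, was also called higher (0.67 with loess, adjusted p = 1.6e-05, and 0.34 with median centring). RLM1 exceeded it by 0.35 ± 0.27 with loess (SD, n = 5, exact two-sided sign-flip test, p = 0.12, adjusted p = 0.16), with replicate 1 the other way at -0.07, so no difference between them was shown.

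**Figure D2:**
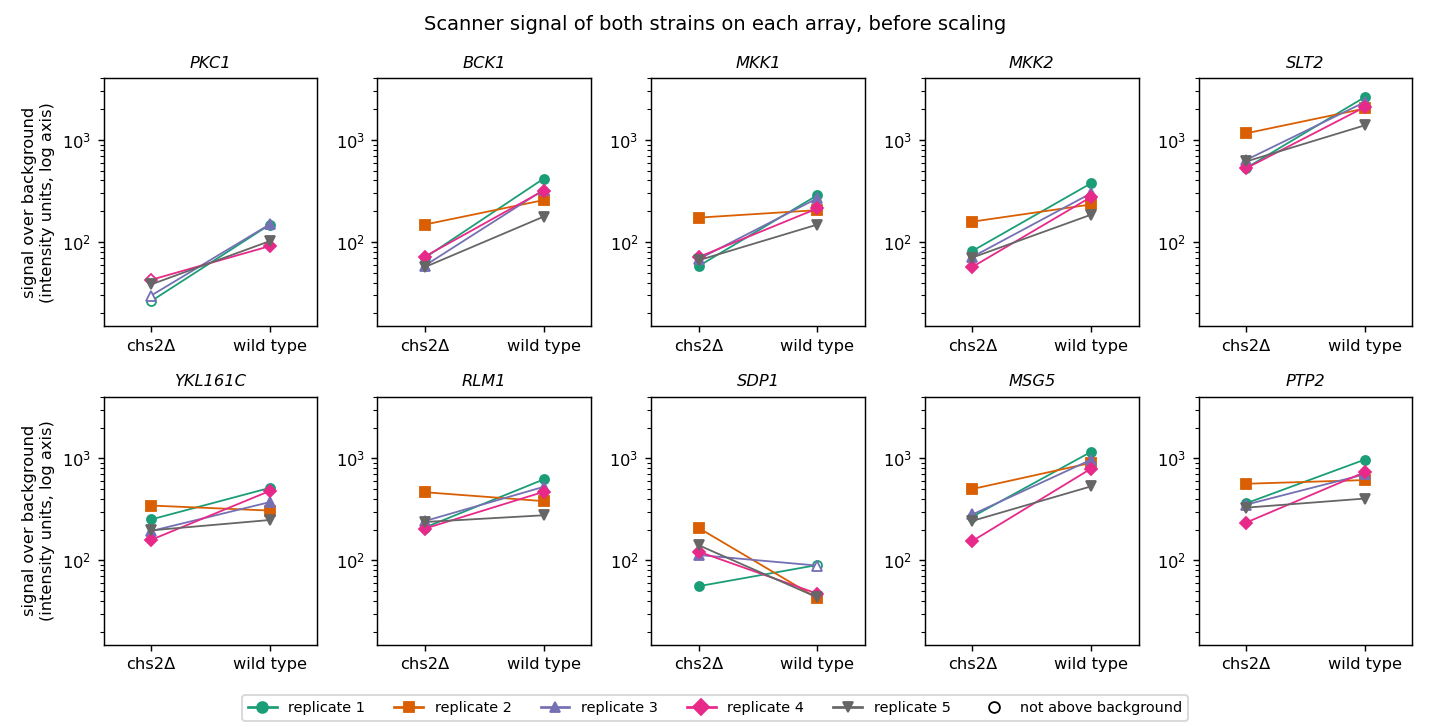
Scanner signal over local background (intensity units, log axis) of chs2Δ and wild type for each gene and array before any scaling; lines join the channels of an array and open symbols are readings not above background. The chs2Δ signal is the lower for most genes, which follows the dimmer chs2Δ channel of every array, but SDP1 is higher in chs2Δ on 4 of 5 arrays.

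SDP1 (YIL113W), which encodes a stress-inducible dual-specificity phosphatase of Slt2, had the largest ratio of the 10 genes under both scalings. Its signal over background was 55.9, 208, 113, 122 and 141 in chs2Δ against 90.2, 42.7, 89.0, 47.2 and 43.4 in wild type. The raw chs2Δ signal was the higher on 4 of 5 arrays although its channel was dimmer throughout, and the exception was replicate 1. The wild-type signal was above background on 3 arrays and not on replicates 1 and 3, and the chs2Δ signal on all 5. Loess ratios were 0.80, 1.62, 1.66, 1.90 and 1.88, or 2.97-fold higher (log2 1.57, SE 0.15, limma adjusted p = 2.8e-05), and median centring gave 1.47, 1.95, 2.01, 2.35 and 1.98, or 3.86-fold (log2 1.95, SE 0.11, adjusted p = 1e-06). The spots were dim, and the size depended on the background treatment. With loess, the log2 estimate was 0.73 with no correction and 2.80 with an offset of 0, and SDP1 was called higher in both. The cause of this dependence was not tested. The 2 spots of the gene differed by 0.87 on replicate 4, the widest gap among 35 pairs of spots, whose median gap was 0.20.

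MSG5 (YNL053W) encodes the other dual-specificity phosphatase in the set, which acts on Slt2 and on the pheromone kinase Fus3. Its direction turned with the scaling as that of SLT2 did. The loess ratios were 0.38, 0.31, 0.38, 0.18 and 0.31, or 1.24-fold higher (log2 0.31, SE 0.05, limma adjusted p = 0.00083), whereas median centring gave -0.29, -0.19, -0.24, -0.48 and -0.19, with an estimate of -0.28 (SE 0.07, adjusted p = 0.0039). With median centring after an offset of 0 or after subtraction the estimates were 0.09 (adjusted p = 0.32) and 0.07 (adjusted p = 0.49). The signal over background was 155 to 501 in chs2Δ against 532 to 1160 in wild type. SDP1 lay above MSG5 on 5 of 5 arrays, by 1.26 ± 0.50 with loess (range 0.42 to 1.72; exact two-sided sign-flip test, n = 5, p = 0.062, adjusted p = 0.10) and by 2.23 ± 0.39 with median centring.

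PTP2 (YOR208W), the gene of a nuclear tyrosine phosphatase that acts on Slt2 and on the osmotic stress kinase Hog1, had the most even ratios among the genes called higher by both scalings. Signals were 363, 564, 352, 235 and 329 in chs2Δ against 974, 613, 699, 734 and 404 in wild type. Loess ratios of 1.02, 0.97, 1.11, 0.83 and 1.05 gave 1.99-fold (log2 0.99, SE 0.06, limma adjusted p = 1.8e-06), and median centring gave 0.34, 0.50, 0.51, 0.12 and 0.55, or 1.32-fold (log2 0.40, SE 0.08, adjusted p = 0.0012). With median centring the estimate was 0.048 without background correction, where the call was lost (adjusted p = 0.62), and 0.86 with an offset of 0. PTP3, the gene of its cytoplasmic relative, went the other way, with -0.48 under loess (SE 0.07, adjusted p = 0.00043) and -0.30 under median centring (adjusted p = 0.0038). PTP2 exceeded PTP3 by 1.29 to 1.71 on the 5 arrays with loess, a mean of 1.48 ± 0.18 (SD, n = 5, exact two-sided sign-flip test, p = 0.062, adjusted p = 0.10), and by 0.70 ± 0.26 with median centring.

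**Figure D3:**
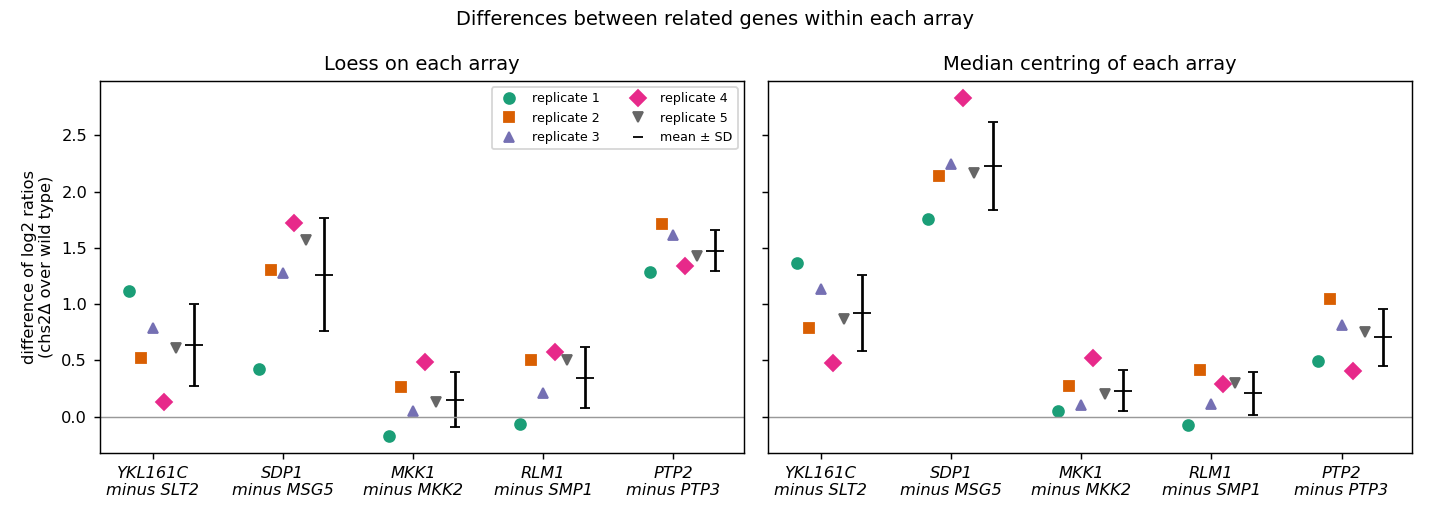
Difference between the log2 ratios (chs2Δ over wild type) of related genes within each of the 5 arrays, with loess (left) and median centring (right); symbols are arrays and bars are the mean ± SD. YKL161C minus SLT2, SDP1 minus MSG5 and PTP2 minus PTP3 are above 0 on all 5 arrays in both panels, while MKK1 minus MKK2 and RLM1 minus SMP1 have replicate 1 near or below 0.

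With loess, the largest ratios belonged to the factor gene RLM1, the phosphatase genes SDP1 and PTP2 and the MAP kinase relative YKL161C. They did not mark 1 position in the pathway, since SLT2 and the phosphatase gene MSG5 had lower loess estimates (0.35 and 0.31). SDP1, RLM1, PTP2 and YKL161C each lay above the other 6 genes on all 5 arrays: the lowest of these 4 was at 0.74, 0.97, 0.93, 0.73 and 0.91 on replicates 1 to 5, and the highest of the other 6 at 0.38, 0.46, 0.38, 0.60 and 0.31. These sets were formed after their values were seen, so no test was run on them. With median centring the separation was present on 3 of 5 arrays. On replicate 1 PKC1, at 0.38, exceeded RLM1 and PTP2. On replicate 4 PKC1, at 0.85, and MKK1, at 0.38, both exceeded YKL161C at 0.20 and PTP2 at 0.12, and PKC1 also exceeded RLM1 at 0.54. The chs2Δ reading of PKC1 was not above background on replicate 1 or 4. Among all genes tested, the loess estimates of SDP1, RLM1, PTP2 and YKL161C ranked at percentiles 96.0, 90.1, 89.8 and 89.7, and the median-centred ones at 99.0, 72.9, 66.5 and 74.0. In the order by loess estimate, SDP1 exceeded RLM1 by 0.55 ± 0.32 (SD, n = 5), on 5 of 5 arrays. That order was set by these same values, so the direction of each mean step was fixed and no p-value is given. RLM1, PTP2 and YKL161C differed from their neighbours by 0.024 and 0.0068, less than the spread between arrays. After the step from YKL161C to SLT2, each further step between neighbours, through MSG5, MKK1, MKK2 and PKC1 to BCK1, was also smaller than its SD over arrays.

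**Figure D4:**
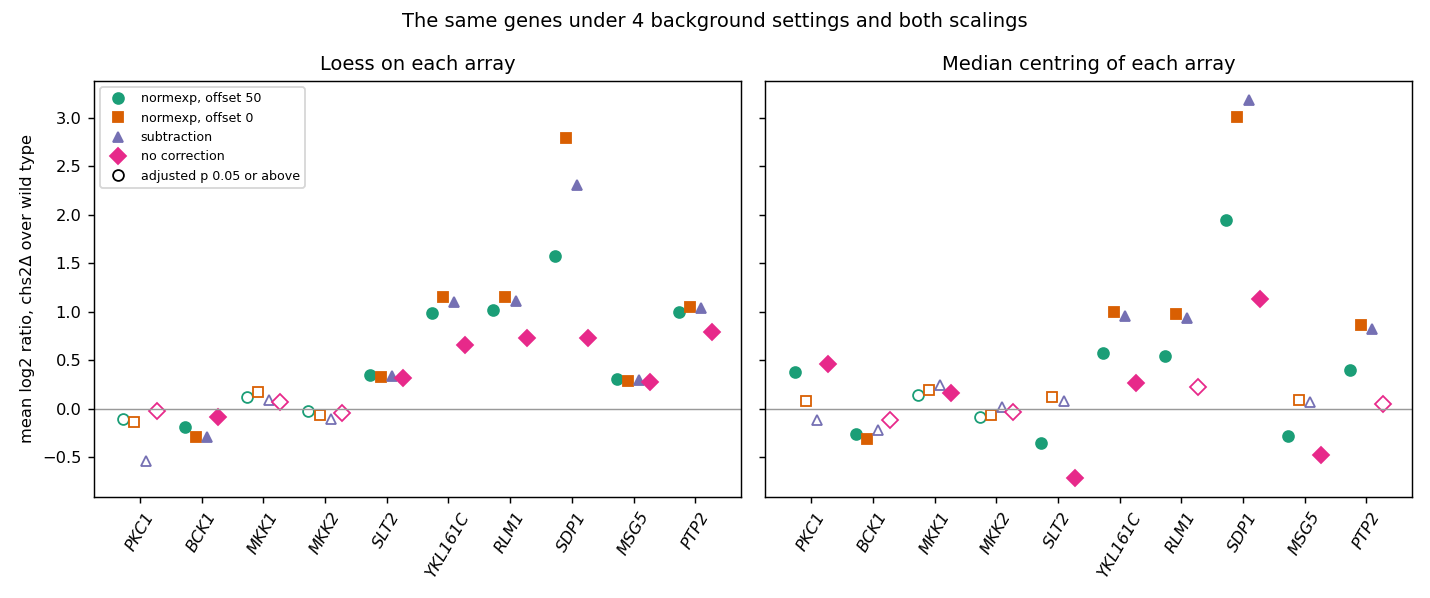
Mean log2 ratio of chs2Δ over wild type for each gene under 4 background treatments (symbols), with loess (left) and median centring (right); open symbols have a limma adjusted p of 0.05 or above. With loess the calls of SDP1, YKL161C, RLM1, PTP2, SLT2 and MSG5 are alike under all 4 treatments, whereas with median centring SLT2, MSG5, PKC1 and MKK2 change sign between treatments, RLM1, PTP2 and BCK1 lose their calls without background correction (BCK1 with subtraction too), PKC1 loses its call with an offset of 0 and with subtraction, and MKK1 gains one without correction.

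Slide and dye were compared within these values. The arrays were assigned to 3 slides by a code in the names of their scans, taken here as a slide number. This put replicate 1 on the first, replicates 2 and 3 on the second and replicates 4 and 5 on the third. Each of the last 2 held both dye orientations. SDP1 averaged 0.80, 1.64 and 1.89 on the slides with loess, YKL161C 1.28, 1.01 and 0.82, RLM1 0.74, 1.08 and 1.10, and PTP2 1.02, 1.04 and 0.94. The direction was the same on each slide for these 4 genes, also with median centring, where the slide means lay between 0.26 and 2.16. Of the 10 genes, 4 had an unadjusted dye p below 0.05 (PKC1, MKK1, SLT2 and RLM1), and 0 of all genes passed limma's test of the dye term after adjustment, while 1291 (20.7%) had an unadjusted p below 0.05. SLT2 averaged 0.24 with chs2Δ in Cy5 and 0.53 with chs2Δ in Cy3 under loess, and -0.46 and -0.19 under median centring.

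Upstream of PKC1, the genes of the sensors and of Rho1 with its activators showed a mixed pattern. Of 9 genes, 6 were called higher and 2 lower with loess (median log2 0.25), and 2 higher and 4 lower with median centring (median 0.02). Over all genes, 35.7% were called higher and 36.0% lower with loess, and 41.5% and 41.6% with median centring. The counts of this list and of those below are to be read against these shares. WSC1, the gene of a principal sensor, had the highest loess value, 0.88 (SE 0.08, limma adjusted p = 1.9e-05), but 0.20 (adjusted p = 0.12) with median centring. RHO1, the gene of the GTPase that binds Pkc1, was lower under both (-0.53, adjusted p = 0.01, and -1.34, adjusted p = 0.00011). Among the 4 genes of GTPase-activating proteins that switch Rho1 off, 1 was called higher and 3 lower with loess, against 2 and 1 with median centring. BAG7 was higher under both (1.38 and 1.65, 2.60-fold with loess, adjusted p = 9.6e-06). LRG1 was at the floor in chs2Δ, where 0 of 5 arrays read it above background. With loess it was at least 1.36-fold lower in chs2Δ (limma adjusted p = 0.0011), a bound set against the lowest signals above background. The bound holds for loess only: with median centring LRG1 stood at 0.91-fold and was not called (adjusted p = 0.22).

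Next to RLM1, 5 more genes were listed: SWI4, SWI6, KNR4 and the relatives SMP1 (of RLM1) and PTP3 (of PTP2). Of these, 3 were called higher and 2 lower with loess, and 2 of each with median centring. KNR4, whose product works with Slt2 in wall signalling, stood at 0.75 (SE 0.05, adjusted p = 4.2e-06) and at 0.05 (adjusted p = 0.54) under median centring. SWI6, the gene of a cell cycle factor that Slt2 phosphorylates, was lower under both (-0.54, adjusted p = 0.00019, and -0.60).

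Downstream, 13 cell wall genes known as Rlm1 targets were listed. Of these, 9 were called higher and 2 lower with loess (median log2 0.83), and 5 higher and 6 lower with median centring (median -0.00088). The median-centred counts were near the shares of all genes (41.5% higher and 41.6% lower). PIR3, the gene of a wall protein, was 13.1-fold higher with loess (log2 3.71, SE 0.06, limma adjusted p = 2.4e-08) and 8.22-fold higher with median centring. FKS1, the gene of a catalytic subunit of glucan synthase, was lower under both (-0.61, adjusted p = 0.00031, and -1.28). A core set of cell wall stress genes, drawn up in earlier work and taken up by the study, also holds SLT2 and MLP1. MLP1 was taken here as YKL161C. The gene that the study lists as YPS4 was read here as YPS3, which was called higher under both scalings (1.17 and 0.53). With YPS3 counted, the 18 other genes of the set had 16 called higher and 0 lower with loess (median 0.92). With median centring 11 were called higher and 6 lower (median 0.36). Among them, YLR194C, CWP1, SED1, PIR3, CRH1, PST1 and PRM5 were also counted as Rlm1 targets above, so these counts overlap. How that set behaves on these arrays was known when it was listed, so its count is not independent evidence of direction. HSP12, a stress protein gene, led it at 18.3-fold with loess (log2 4.19, adjusted p = 3.1e-07), and GFA1, for the first enzyme of chitin precursor synthesis, was the lowest called, at 0.29 with loess but -0.40 with median centring.

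The other MAP kinase cascades of the cell were read in the same way. Of 11 genes of the HOG cascade, which answers to osmotic stress, 4 were called higher and 4 lower with loess (median 0.01). These counts were near the shares of all genes (35.7% higher and 36.0% lower). With median centring 2 were called higher and 6 lower (median -0.29), against 41.5% and 41.6% of all genes. PBS2, the MAP kinase kinase gene of the HOG cascade, was higher under both scalings (0.89, limma adjusted p = 9.3e-05, and 0.46). PTC1, for a phosphatase of Hog1, was lower under both (-0.61, adjusted p = 1.8e-05, and -0.40). Its chs2Δ signal was above background on only 1 array, against 5 in wild type, so the size of its fall rests on readings near the floor. Of 11 genes of the pheromone and filamentous growth cascades, 2 were called higher and 5 lower with loess (median -0.14) and 1 higher and 5 lower with median centring (median -0.14). STE11 was counted in this list and in that of the HOG cascade, and PTP3 in the HOG list and in the list next to RLM1. STE50, an adaptor of the kinase Ste11, was higher under both (0.57, limma adjusted p = 5e-04, and 0.32). KSS1, a MAP kinase gene, was read above background in chs2Δ on 0 of 5 arrays, as LRG1 was. It was at least 1.36-fold lower with loess (limma adjusted p = 3.7e-05), but with median centring it stood at 0.92-fold and was not called (adjusted p = 0.092). Whether the cell wall integrity genes differed from these cascades was not tested.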

How the data were processed

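The authors scanned each of the 5 arrays in both dye channels and quantified the spots with ImaGene (version 6.0.0 in the file headers). The deposited scanner files hold raw intensity, local background and spot flags, without correction or normalization. A further deposited table gives log2 ratios (Cy5 over Cy3) that the authors had background-corrected and lowess-normalized with limma. These were not turned for dye, and they served as an alternative and correlated with the scanner ratios at 0.9986 to 0.9997.

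Ratios were computed with limma 3.58.1 under R 4.3.3 (jsonlite 2.0.0 and statmod 1.5.0 were also loaded). Poor spots (115 to 261 per array) were left out, background was corrected by normexp with an offset of 50, and ratios were scaled on each array by loess (span 0.3) or median centring. Spots of a gene were averaged, ratios turned to chs2Δ over wild type, and lmFit and eBayes fitted over 5 arrays. Above background meant a signal more than 2 background SD over the local background median. Of the 10 genes' readings, 46 of 50 in chs2Δ and 47 of 50 in wild type met this, and 0 were saturated. The bound for genes dim in chs2Δ used channel values after loess and Aquantile scaling, open to dye bias since the dyes were not balanced. The number of arrays limits the precision. The procedure was tested on simulated data, with the chs2Δ signal left undimmed or dimmed by the same factor on all arrays. On the real arrays the ratio of median signals, chs2Δ over wild type, ran from 0.20 to 0.62. The simulation therefore does not decide between loess and median centring here.

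The members and gene lists were chosen with earlier results of these data known. Named were all members, CHS2, MYO1, mating type genes, SMP1, PTP3 and the highest and lowest called gene of each list. Gene names came from the R64 annotation, in which 5756 of 6256 genes were found. Array coordinates and build are not given in the sources used here. Alternatives covered background, scaling, dye, slide, flags, dim genes, spots, the deposited ratios, thresholds and leaving out each array. Promoter motifs were not searched.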

Additional observations from a re-analysis of the deposited data

Results flagged for a closer look

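Of 28 groups of 5 values examined, 1 had a value far from the others. The groups were the genes and the differences between related genes, under both scalings. PKC1 was not examined, since it had no value on replicate 2. The loess ratio of SDP1 was 0.80 on replicate 1 and lay between 1.62 and 1.90 on the other 4 arrays. Chance flags about 1 in 20 groups. On replicate 1 the SDP1 signal over background was 55.9 in chs2Δ, the lowest of the 5 arrays, against 90.2 in wild type, where it was not above background.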

How the results depend on the processing

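SDP1, YKL161C, RLM1 and PTP2 were called higher under all 20 alternatives to the loess values, and SLT2 and MSG5 under 19, the exception being median centring, which gave SLT2 -0.35, MSG5 -0.28 and PKC1 0.38; it differs from loess only in the curve taken off each array. PKC1 was 0.010 with a dye term. MKK2 lay between -0.061 and 0.0078 when 1 array was left out, the positive value without replicate 4. With median centring, an offset of 0 gave SLT2 0.12 and MSG5 0.091, and subtraction gave SLT2 0.08, MSG5 0.074, PKC1 -0.11 and MKK2 0.016; the cause was not tested. Without background correction and with median centring, RLM1 (adjusted p = 0.078), PTP2 (adjusted p = 0.62) and BCK1 (adjusted p = 0.059) were no longer called, and MKK1 was (0.16, adjusted p = 0.021). Members called lower numbered 3 with median centring and 0 when each spot was fitted alone (BCK1 adjusted p = 0.094), at an adjusted p below 0.01 and at an unadjusted p of at most 0.01. Leaving out 1 array gave 0 to 2: 0 without replicate 2, 3 or 5, and 2 without replicate 4, when PKC1 joined BCK1 (-0.22, adjusted p = 0.019). With median centring, members called lower numbered 1 with an offset of 0 and 0 with subtraction, and PKC1 lost its call without replicate 1 (adjusted p = 0.059) or 4 (adjusted p = 0.052). SDP1 minus MSG5 was 0.46 without correction, 2.51 with an offset of 0, 2.04 with subtraction and 2.23 with median centring; PTP2 minus PTP3 was 1.02, 1.90, 1.75 and 0.70 in the same order. PKC1 had too few readings above background for the filter on dim genes. Every ratio sets chs2Δ against wild type within 1 array, so all fits are paired.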
